A study of Macaca mulatta with 22 samples.

Results

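The 6 control lists of N6-methyladenosine (m6A) peaks from infant rhesus macaque (Macaca mulatta) prefrontal cortex are described here, 1 list per animal. They are 6 of the 11 peak lists of a study with 22 samples, in which each immunoprecipitated library has an input library beside it. The members were all immunoprecipitated samples labelled as control: males A and B, and females C, C1, C2 and C3, all at postnatal day 35. The other lists come from animals that inhaled the anaesthetic sevoflurane, and they were not used. What the control animals received in its place is not given in the sources used here, and neither strain nor genotype is named. About 20 μg of total RNA per sample was broken into fragments, pulled down with an m6A antibody on magnetic beads and made into strand-specific libraries with under 16 cycles of PCR. A gene was counted as present in a list if at least 1 peak of that list was placed in it, and the 6 lists held 3984 peaks in 2021 genes.

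m6A is a methyl mark on adenosine inside RNA. It is written by a complex around METTL3 and METTL14, removed by the demethylases FTO and ALKBH5, and bound by reader proteins such as the YTH family, which act on the splicing, export, translation and decay of marked transcripts. In mRNA the mark is known to gather near stop codons, in long internal exons and in the 3' untranslated region, and the brain is known as a tissue rich in it. A peak is a stretch of a transcript that the antibody enriched, and its fold enrichment is the authors' own ratio for that peak. The inputs were not analysed here, so the level of a transcript and its degree of methylation cannot be told apart, and a gene without a peak may be weakly expressed or unmarked. The tables hold no read counts. Sequencing depth is therefore unknown, and the number of animals sets the precision.

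The lists differed in length. They held 601 peaks in A, 535 in B, 483 in C, 452 in C1, 703 in C2 and 1210 in C3, a mean of 664 ± 282 (SD, n = 6). C3 was the longest by a wide gap, and the other lists ran from 452 to 703 peaks. The corresponding genes numbered 558, 498, 450, 407, 642 and 1050. C1 stood apart in another way: its median log10 p-value per peak was -9.58, whereas the medians of the other lists lay between -5.58 and -5.95, and 83.8% of its peaks had 1 exonic block against 58.1% to 71.0% elsewhere. The males held 601 and 535 peaks and the females 712 ± 350 (SD, n = 4), a log2 difference (male minus female) of -0.21 (two-sided exact permutation test over 15 choices of males, p = 0.8; the smallest p this design allows is 0.0667). Without C3 the sign of that difference turned, to 0.083.

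A small core of genes recurred in every animal. Peaks in all 6 lists were found for 94 of the 2021 genes (4.65%), in 5 lists for 67 (3.32%) and in fewer for 1860 (92.0%). Of the last, 1332 (65.9% of all genes) had a peak in 1 list alone. The 94 recurrent genes carried 728 peaks, 18.3% of all peaks. They made up 16.8% of the genes of A, 18.9% of B, 20.9% of C, 23.1% of C1, 14.6% of C2 and 8.95% of C3, so their share was lowest in the longest list and highest in the shortest. Genes seen in 1 animal alone made up 35.4 ± 6.07% of a list (SD, n = 6), from 30.5% in C2 to 46.8% in C3. Any 2 lists shared between 157 and 370 genes (median 218 over 15 pairs), which was 38.6% to 57.6% of the shorter list (median 44.5%). Leaving out any 1 animal left 96 to 113 genes in all remaining lists, a number that cannot fall below 94.

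**Figure D1:**
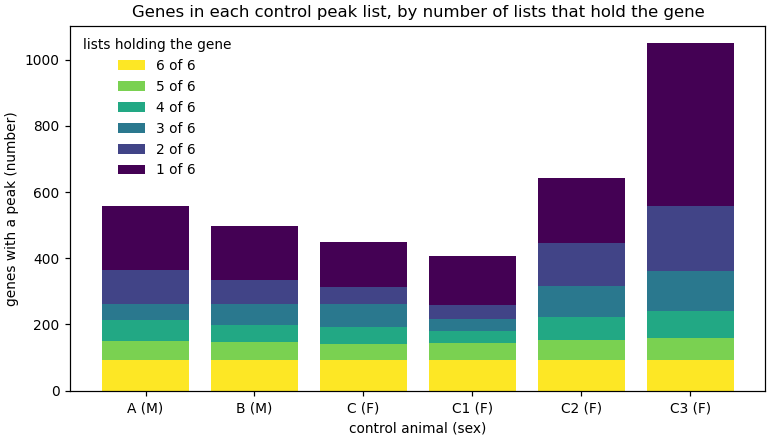
Genes with at least 1 m6A peak in each of the 6 control animals (M male, F female), stacked by how many of the 6 lists hold the gene. The 94 genes of all 6 lists form the same bottom block in every bar, while genes of 1 list range from 138 in C to 491 in C3.

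Messenger RNAs of the mitochondrial genome stood at or near the top of most lists. Of 13 mitochondrially encoded mRNAs, 11 had a peak in at least 1 animal, 9 of them in all 6. Genes were ranked within each list by the fold enrichment of their strongest peak, as a percentile in which 100 is the highest gene of that list. The median percentile of the mitochondrial mRNAs was 98.1 in A, 98.8 in B, 98.9 in C, 96.8 in C2 and 98.1 in C3, but 73.0 in C1. The 80 recurrent nuclear genes with a symbol had medians of 63.0 to 78.1 in the same lists. In fold, the mitochondrial medians were 89.4 in A, 301 in B, 120 in C, 12.3 in C1, 44.0 in C2 and 49.95 in C3. B was the highest and C1 the lowest. A further gene on the mitochondrial genome, without a symbol, was in 5 lists. Its median percentile was 35.1 by fold, from 13.5 in A to 95.8 in B, and 98.0 by p-value.

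ND2, a subunit of respiratory complex I, stood at percentiles of 99.6 in A, 99.6 in B, 99.3 in C, 66.5 in C1, 100 in C2 and 99.9 in C3, with folds from 10.2 in C1 to 576 in B. It held 2 peaks in each list, and its region chrM:5135-5462 was present in all 6. ND6, also of complex I and encoded on the opposite strand to the other mitochondrial mRNAs, ranked from 71.1 to 100 (median 99.6) through 1 peak at chrM:14169-14667 on the minus strand. COX1, which holds the catalytic centre of cytochrome c oxidase, stayed high in C1 too. Its percentiles ran from 98.1 to 100, and the fold of 227 in C1 was the highest of that list. COX2 and COX3, the other core subunits of the same enzyme, had medians of 98.5 and 96.3 with C1 at 74.9 and 68.8. CYTB, the cytochrome b of complex III, had a median of 97.4 with C1 at 57.7. ND4, of complex I, also stayed high in C1, at 98.0, and had its low values in A (87.3) and C3 (91.0). The widest peaks of the core were mitochondrial too: the strongest peak of ND5 had a median exonic width of 1188 bp and that of ND1 940 bp. ATP6, of the ATP synthase, lacked a peak in C3 and had a median of 87.1 over the other lists. ND3 lacked one in C1 and C2 and ranked from 47.0 to 96.7. No peak was placed in ND4L or ATP8, the members of the list without one.

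Among nuclear genes with a symbol the highest ranks belonged to transcripts of diverse function. CA11, a carbonic anhydrase-related protein without enzymatic activity that is abundant in brain, had a median percentile of 98.96 and stayed between 96.9 and 99.5, with folds of 56.8 to 332. Its single region covered chr19:44012863-44014520 on the minus strand (rheMac8 assembly), and its strongest peak had a median exonic width of 654 bp. ZBTB47, a zinc finger protein, ranged from 97.6 to 99.8 (median 98.5) and held the region chr2:99968309-99968937 on the minus strand in all 6 animals. Both were among the 16 genes above the 80th percentile in every list. SERPINI1, the axonally secreted protease inhibitor neuroserpin, had a median of 97.7 and its lowest rank, 88.8, in C1. VGF, a neuropeptide precursor of secretory granules, had a median of 97.4 and was lowest in C1 at 86.5. Its region, chr3:126569070-126569549 on the minus strand, had its midpoint at 82.2% of the annotated gene. The SERPINI1 region, chr2:126265831-126266363 on the minus strand, lay at the other end, at 0.38%, though its deposited annotation class was 3' untranslated region.

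Several of the next genes act on RNA or chromatin. FBL, the nucleolar methyltransferase fibrillarin, had a median percentile of 96.9 (94.7 to 98.6). PABPN1, the nuclear poly(A)-binding protein, had a median of 95.6, with C1 at 69.5 and C2 at 86.8 below the other lists. AEBP2, a cofactor of the Polycomb repressive complex, had a median of 95.4 and was lowest in C1 at 79.98. ASH1L, a histone methyltransferase, stayed between 90.1 and 97.3 with a narrow region, chr1:130257065-130257304, at 0.09% of the gene. ZFTA, a zinc finger gene, had a median of 91.8. Others of the top 15 were CRACD (median 96.1), an actin regulator, RHOBTB2 (95.8), an atypical small GTPase, FADS2 (94.7), a fatty acid desaturase, RNF112 (94.2), a RING finger protein of the brain, and FKBP2 (93.7), a prolyl isomerase of the endoplasmic reticulum. RHOBTB2 and RNF112 were lowest in C1, at 77.5 and 72.7, whereas FADS2 was highest there, at 99.3.

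**Figure D2:**
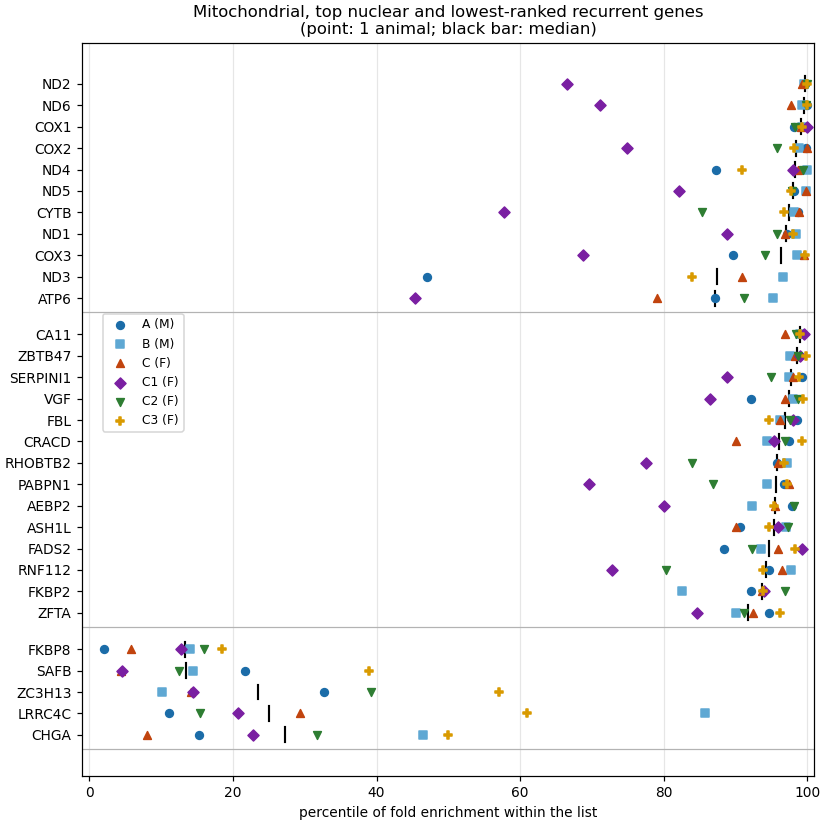
Percentile of fold enrichment within each list (x axis, 100 highest) for the mitochondrial mRNAs, genes from the 15 highest nuclear ones and the 5 lowest genes of the core with a symbol; each point is 1 animal and the black bar is the median. The C1 points of ND2, ND6, COX2, COX3 and CYTB lie between 57.7 and 74.9, to the left of the other animals, and FKBP8 stays at or below 18.4 in every list.

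Recurrence did not require a high fold. Of the 94 genes, 75 had a median percentile above 50 and 38 above 80, but 19 lay under 50, and 4 (HDGFL2, PTMS, SAFB and FKBP8) were under 50 in every list. FKBP8, an anti-apoptotic prolyl isomerase of mitochondrial membranes, ranked at 2.0 in A, 14.0 in B, 5.8 in C, 12.8 in C1, 15.9 in C2 and 18.4 in C3, with folds of 2.56 to 3.46. Ranked by its p-value instead, it had a median percentile of 93.4. ZC3H13, a subunit of the m6A writer complex itself, had a median of 23.5 by fold and 93.1 by p-value. CHGA, the granule protein chromogranin A, had 27.3 by fold and 94.2 by p-value, and PTMS, parathymosin, 30.2 and 97.3. In all, 9 of the 19 genes under 50 by fold were above 80 by p-value; GPM6B, SNN, FAIM2, HNRNPU and TSPYL2 were the others. SAFB, a scaffold attachment factor, and LRRC4C, the netrin-G ligand, were under 50 by both measures, with 13.4 and 25.0 by fold and 35.2 and 43.2 by p-value. The median of LRRC4C by fold moved to 41.5 with peak p-values of at most 1e-05 and to 43.6 with lists of equal length. By p-value, 90 of the 94 lay above 50 and 64 above 80. The rank correlation between fold and p-value across the genes of a list ran from 0.460 in C to -0.0566 in C1 (Spearman, a description; genes of 1 list share a library and are not replicates).

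Some recurrent genes moved far within the ranking from animal to animal. The distance between highest and lowest percentile had a median of 33.3 over the 94 genes and passed 50 for 14 of them. MYCBP2, a ubiquitin ligase of axons, stood at 7.8 in A, 1.4 in B, 91.4 in C, 95.9 in C1, 32.8 in C2 and 88.9 in C3. It had 4 separate regions and its commonest was shared by 4 lists, so the ranked stretch of the transcript was not the same in every animal. MAPT, the microtubule-associated protein tau, stood at 84.9 to 96.7 in A, B, C and C3 but at 11.2 in C1 and 32.8 in C2, and its region chr16:52468381-52468681, at 97.4% of the gene, was present in all 6. VASH1, a tubulin carboxypeptidase, was lowest in C1 as well, at 9.8, against 68.2 to 94.7 elsewhere. LZTS3, a postsynaptic density protein, was high in A alone (97.7) and ranked from 18.1 to 64.4 in the other lists. LRRC4C was high in B (85.7) and C3 (61.0) and at 29.3 or below in the rest.

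Whether recurrence goes with rank was asked with the measured list left out of the classing. For each animal, its genes were sorted by the other 5 lists only, and genes present in all 5 were set against genes present in none. The 94 genes form the first class in every animal, and the 6 differences share lists, so they are not fully independent. The median percentile of fold enrichment was 74.1 against 44.4 in A, 74.7 against 40.8 in B, 69.1 against 41.2 in C, 67.6 against 38.8 in C1, 70.2 against 45.4 in C2 and 82.0 against 42.2 in C3. The recurrent class was higher in every animal, least in C2 and most in C3. The mean difference was 30.8 ± 5.30 percentile points (SD, n = 6; two-sided exact sign-flip permutation test, p = 0.03125, the smallest that 6 animals allow). Ranked by p-value the difference was 55.1 ± 10.7 points (SD, n = 6; exact sign-flip permutation p = 0.03125), from 33.5 to 61.5. A gene enters a list only through a listed peak, and no listed peak had a p-value above 0.00074. Genes with small p-values are therefore likelier to be listed in other animals too. The direction by p-value was thus likely from the outset, and the sign-flip test cannot separate recurrence from this cut. With the mitochondrial genome left out, the difference by fold was 27.6 points. Without any 1 animal it was 28.1 to 31.3 points, where the smallest p that 5 animals allow is 0.0625. Averaged over animals, genes of intermediate recurrence lay between: with 4 other lists the mean of the medians was 58.0 by fold and 66.8 by p-value, and with 1 other list 42.7 and 37.8. By fold the steps were not even, since genes in 3 other lists (45.3) lay below genes in 2 (50.8). In single animals the order did not always hold. In C1 by p-value, genes with 1 and 2 other lists (35.9 and 26.5) lay below genes with none (42.9). Examples by fold were A with 1 other list (35.3 against 44.4) and C2 with 3 (36.1 against 45.4).

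Read the other way, genes in the top 20% of a list by p-value had a peak in at least 1 other animal in 90.9 ± 14.4% of cases (SD, n = 6), and genes in the bottom 20% in 41.2 ± 7.83%. By fold the same shares were 77.5 ± 8.81% and 54.9 ± 12.2%. The limit on p-values within each list bears on the shares by p-value too. C1 went apart by p-value: its top 20% reached 64.6%, against 83.2% to 100% in the other animals. That was below the groups in the middle of its list (67.1% to 71.6%) and above its bottom 20% (45.7%). Genes of all 6 lists made up 54.5 ± 12.3% of the top 20% by p-value and 33.7 ± 9.39% of the top 20% by fold (SD, n = 6 each; this difference was not tested).

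**Figure D3:**
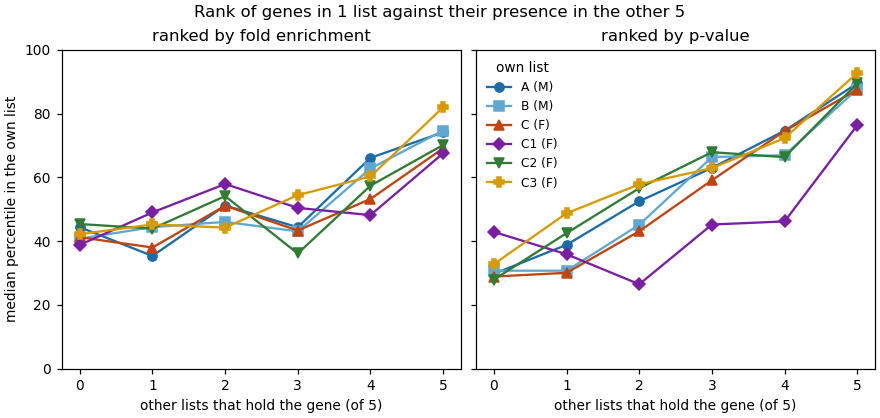
Median percentile of a list's genes (y axis) against the number of the other 5 lists that hold the gene (x axis), by fold enrichment on the left and by p-value on the right; each line is 1 animal. In every animal genes of all 5 other lists lie above genes of none, by 24.8 to 39.8 points on the left and 33.5 to 61.5 on the right, and C1 is the lowest line on the right from 2 other lists on.

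Most genes carried a single peak per animal. Of 3605 pairs of a gene and a list, 3282 (91.0%) had 1 peak, 273 had 2, 44 had 3 and 6 had 4. Genes with more than 1 peak were commoner among recurrent genes: 55.3% of the 94 had 2 or more peaks in some list, against 3.30% of the genes of 1 list, which had 1 chance rather than 6. With the measured list left out of the classing, genes in all other lists had 1.29 ± 0.0766 peaks and genes in no other 1.02 ± 0.0293, a mean difference of 0.266 ± 0.0524 (SD, n = 6; exact sign-flip permutation p = 0.03125), present in 6 of 6 animals. A gene is present in a list through any 1 of its peaks, so genes with several peaks have more chances to recur. The test cannot separate peak number from this definition. CHD3, an ATP-dependent chromatin remodeller of the NuRD complex, had the most, with 3 peaks in A, B, C and C3 and 2 in C1 and C2. ELFN2, a leucine-rich repeat membrane protein, and FADS2 each had a mean of 2.5 peaks, and COX1 one of 2.33. ADGRL1, the adhesion receptor latrophilin, and PLEC, the cytolinker plectin, each had a mean of 2.17, and so did FKBP2 and TCEAL5, which had 4 peaks in A and 1 in B. ADCY1, a calcium-stimulated adenylate cyclase of neurons, had a mean of 2.0, as did RHOBTB2, ND2 and SPOCK2, a brain proteoglycan. Genes with 2 or more peaks in every list included ND2, COX1, FADS2, FKBP2, ELFN2, CHD3 and SPOCK2. In contrast, 42 of the 94 had exactly 1 peak in every list, CA11, SERPINI1 and CHGA among them.

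The exonic width of a peak, the sum of its blocks, had a median of 148 to 151 bp in all 6 lists, with a range of 89 to 1515 bp over all peaks. Recurrent genes had wider peaks. The strongest peak of genes in all other lists had a median of 241 bp in A, 239.5 in B, 223.5 in C, 239.5 in C1, 269 in C2 and 270.5 in C3, against 120 to 126 bp for genes in no other. The difference of 126 ± 19.0 bp (SD, n = 6; exact sign-flip permutation p = 0.03125) was present in all 6 animals, and it was 120 bp over single-block peaks. Of the 94 genes, 30 had a median exonic width above 300 bp. After ND5, ND1, and CA11 and COX2 at 654 bp each, the widest of those with a symbol was CAMK2B at 598 bp, the beta subunit of calcium/calmodulin-dependent kinase II, in chr3:64570301-64570928 at 97.8% of the gene. Its peak spanned 509 to 628 bp in 5 lists and 180 bp in B. KIF1A, the kinesin that carries synaptic vesicle precursors, had a median of 541 bp, and SYP, the synaptic vesicle protein synaptophysin, 537 bp.

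Blocks count the exonic pieces that a peak joins across introns. Of the 3984 peaks, 2629 (66.0%) had 1 block, 1014 (25.5%) had 2 and the rest 3 to 6. Peaks of 2 blocks had a median of 121 exonic bp spread over 1373 bp of the genome. No difference in the number of blocks passed the test: genes in all other lists averaged 1.43 ± 0.0533 and genes in no other 1.51 ± 0.188, a difference of -0.0855 ± 0.166 that was positive in 2 of 6 animals (exact sign-flip permutation p = 0.312). It depended on C1, without which it was -0.194 (exact permutation p = 0.0625, the smallest for 5 animals), and it was -0.040 on nuclear chromosomes alone (exact permutation p = 0.562). Of the 94 genes, 59 had 1 block in every list and 16 averaged at least 2.

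**Figure D4:**
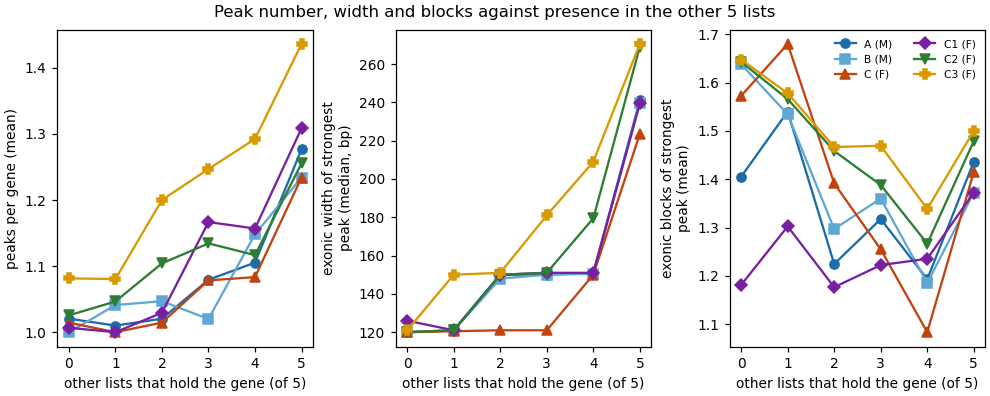
Peaks per gene (mean, left), exonic width of the strongest peak (median, bp, middle) and its exonic blocks (mean, right) against the number of the other 5 lists that hold the gene; each line is 1 animal and the y axes do not start at 0. From 0 to 5 other lists the left and middle values are higher in all 6 animals, and the block count is higher in A and C1 and lower in the other 4.

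Genes with many blocks included those of RNA-binding proteins. HNRNPA2B1, a nuclear ribonucleoprotein that has been described as an m6A reader, had a strongest peak of 6 blocks in 5 lists and 5 blocks in C1, over chr3:82014678-82018771. FBL had 3 to 6 blocks (mean 4.83). PTMS had 3 to 5 and TSPYL1, a nucleosome assembly protein-like gene, 3 in every list. A group chosen after these values were seen, the 21 symbols of heterogeneous nuclear ribonucleoproteins in the supplied table, had 9 members with a peak and 5 among the 94. Over all identifiers with a symbol in that table, 7.30% had a peak. Of all genes with a symbol and a peak, 4.70% were in all 6 lists. The shares of the group were not tested against these. HNRNPR stood at a median percentile of 82.1, HNRNPA0 at 64.3, HNRNPC at 59.6, HNRNPA2B1 at 55.2 and HNRNPU at 34.8. By p-value all 5 lay above the middle of the lists, from 62.3 for HNRNPC to 96.5 for HNRNPU. CIRBP, the cold-inducible RNA-binding protein (87.3), DHX36, a G-quadruplex helicase (90.4), SNRNP70, of the U1 spliceosomal particle (82.0), and NCL, nucleolin (28.0), were further recurrent genes of this kind.

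Most recurrent genes had at least 1 place with a peak in every animal, and many had peaks elsewhere too. Peaks of all lists were joined into regions wherever exonic blocks of the same strand shared 1 bp or more, which gave 2435 regions, 91 of them (3.74%) present in all 6 animals and 1826 (75.0%) in 1. Overlaps were chained, so the peaks of 2 animals in a region need not overlap each other. Of the 94 genes, 87 (92.6%) had a region common to all 6 lists, and 49 (52.1%) had 1 region only. CCDC85A, SHANK1, NFIX, NEFM and LZTS3 had their commonest region in 5 lists, and MYCBP2 and PLEC in 4. Of the 67 genes of 5 lists, 52 (77.6%) had 1 region in all 5. With 50% reciprocal overlap required, 76 regions were present in all 6. Along the annotated gene, introns included, 37.9 ± 2.35% of peak midpoints lay in the last 20% of its length and 22.7 ± 2.53% in the first 20% (SD, n = 6). For the commonest region of the recurrent genes the shares were 40.4% (36 of 89 with a position) and 22.5% (20 of 89), and for genes of 1 list 34.7% (431 of 1241) and 20.2% (251). SHANK1 (98.0%) and SYP (89.6%) are examples of the former. SERPINI1, ASH1L and NBEA (0.02%), a trafficking protein of neurons, are examples of the latter. The deposited annotation class did not always go with this position. The SYP region was classed as 5' untranslated region, and those of SERPINI1 and ASH1L as 3' untranslated region. A pair of annotated genes can share a peak: 130 peaks (3.26%) overlapped a peak of another gene in the same list. RAP1GAP2 and KIF1A each have a second identifier without a symbol among the 94, at nearly the same coordinates.

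Genes of 5 lists were missing most often from C and C1, the shortest lists. Of the 67, 10 lacked a peak in A, 13 in B, 19 in C, 16 in C1, 7 in C2 and 2 in C3. RRBP1, a ribosome-binding protein of the endoplasmic reticulum, ranked from 80.3 to 94.96 (median 93.0) and was absent from C. CELF1, a splicing regulator, stayed between 91.4 and 95.4 (median 92.4) and was absent from B. ACTL6B, the neuronal subunit of the BAF chromatin remodelling complex, had a median of 91.0 and was low in C3 at 57.8. GLB1L2, a beta-galactosidase-like gene, had a median of 94.7 but stood at 0.667 in C, where its peak was 91 bp wide. It had 3 separate regions, and the peak of C lay outside its commonest, which was shared by 3 lists. NACC2 (90.1), a transcriptional repressor, was absent from C1, PDZD4 (90.1) from C2 and REPIN1 (87.9), a zinc finger protein, from A. TFCP2 (87.1), a transcription factor, was absent from C. GAP43, the growth cone protein of developing axons, had a median of 88.4 and a range from 8.1 in C2 to 98.5 in C3. Its commonest region was shared by 4 of its 5 lists.

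Genes of a single list had a median percentile of 42.1 by fold and 32.4 by p-value. Of the 1332, 185 (13.9%) stood above the 80th percentile of their list by fold and 67 (5.03%) by p-value. Among the highest by fold were KCTD1 (98.6), LONP1, a mitochondrial protease (95.9), and U1, the small nuclear RNA (97.3), all in C1, and TKT, transketolase (97.7), in C3. Non-coding RNAs were present as well, chosen here after their values were seen: Metazoa_SRP, the RNA of the signal recognition particle, was in all 6 lists (median 50.8, by p-value 97.3), and SCARNA17, a small Cajal body RNA, in 5 (69.5). Of the 94 recurrent genes, 11 lay on chromosome 19, which held 122 of the 2021 genes with a peak and carried 8.14 ± 0.526% of the peaks of a list (SD, n = 6). Chromosome 1, with 202 of the genes and 9.20 ± 0.954% of the peaks, held 7 of the 94.

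The tissue label was checked against marker lists, which were chosen with earlier results of these data known. As background for these and the other lists, 7.30% of the 24186 identifiers with a symbol in the supplied table had a peak in at least 1 control list; that table also holds genes the cortex may not express. Of 14 neuronal markers, 5 had a peak: NEFM, a neurofilament subunit, and SYP in all 6 lists, RBFOX3, the nuclear protein NeuN, in 4, SYT1 in 2 and UCHL1 in 1. SYP stood at percentiles of 52.1 in C1 to 96.6 in C2 (median 76.7), and NEFM at 54.5 to 69.4 in 5 lists but at 1.6 in C. Excitatory neuron markers had 2 of 11 members with a peak, NEUROD2 in 4 lists and CAMK2A in 2, and inhibitory neuron markers 2 of 12, SLC32A1, the vesicular GABA transporter, in 3 and NPY in 1. For other cell types the shares were near that background. Astrocyte markers had 1 of 10 (SLC1A3 in A), oligodendrocyte and precursor markers 1 of 13 (CNP in C1, C2 and C3), microglia markers 1 of 10 (CX3CR1 in C), and endothelial and blood cell markers 0 of 8. A marker without a peak can be expressed and unmarked, so these counts do not measure cell types, and in bulk tissue fewer cells of a type and less RNA per cell cannot be told apart. Over all 1892 genes with a symbol and a peak, 89 (4.70%) were in all 6 lists and 651 (34.4%) in 2 or more, with a median percentile of 44.5, against which the lists below can be read.

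Of the genes that write and erase m6A, 2 of 11 had a peak: ZC3H13 in all 6 lists, at chr17:25153025-25153533 on the minus strand, and RBM15, which guides the writer complex, in C2 at 80.3. METTL3, METTL14, WTAP, FTO and ALKBH5 had none. Of 13 readers, 6 had a peak. HNRNPA2B1 and HNRNPC were in all 6, PRRC2A in 4 (median 85.7, from 20.0 to 95.3) and FMR1, the fragile X protein, in 3, while YTHDC1 and YTHDF3 were each in 1. The percentiles of HNRNPC were 39.9, 78.9, 66.9, 38.8, 52.4 and 78.8 in A, B, C, C1, C2 and C3, in the middle and upper parts of the lists.

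Secretory granule genes had 3 of their 6 members with a peak in all 6 lists, of 15 on the list: VGF, SERPINI1 and CHGA. CHGB, chromogranin B, was in 5 (median 43.4, absent from B), the prohormone convertase PCSK1 in 4 and PCSK2 in 1. Each animal held 4 or 5 of these genes. Cytoskeleton and motor genes also had 3 recurrent members, with 10 of 24 showing a peak: KIF1A (median 64.6, from 60.4 to 85.0), MAPT and MAP1A, a microtubule-associated protein of dendrites (35.7, from 27.3 to 60.9). ANK3, the ankyrin of the axon initial segment, was in 3 lists at 13.3 to 23.0.

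At the synapse, presynaptic release genes had 12 of 24 members with a peak, but SV2A, a synaptic vesicle glycoprotein, was the member in all 6 lists. It stood at 72.9, 87.9, 95.1, 71.1, 75.4 and 79.0 in A, B, C, C1, C2 and C3, in the upper part of each. PPFIA3, liprin, was in 3 lists and the vesicle protein VAMP2 and the active zone protein PCLO in 2 each. Postsynaptic scaffolds had 6 of 17, with SHANK1 in all 6 (median 71.8, from 48.2 to 94.4), DLGAP1 (37.3, absent from C1) in 5, and BAIAP2 in 2. Adhesion genes and synaptic organisers had 12 of 25, none in all 6. CADM3, a cell adhesion molecule, was in 5, with a median of 33.0, and was absent from B. LRRC4B was in 4 and NRXN2 in 3. Among receptors, peaks were mostly in 1 or 2 lists. Glutamate receptors had 4 of 22 (18.2%), with GRIA1 in 2 lists and GRIA2, GRIK3 and GRM2 in 1 each. GABA receptors had 3 of 14 (21.4%), of which GABBR1, a subunit of the GABA type B receptor, was in 5 lists (58.6, from 21.7 in A to 85.6 in C), and GABRD and GABRA4 in 1 each. Voltage-gated channels had 5 of 22, CACNA1A in 4 and KCNA1, SCN1A and SCN2A in 2 each.

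Chromatin regulators had the most members with a peak, 15 of 24, yet CHD3 was the one in all 6 lists. CHD3 stood at 67.6 to 83.0 in 5 lists and 99.4 in C2. KDM5C, a histone demethylase on the X chromosome, was in 5 (67.6, absent from C1), CHD4 in 3, and BPTF and SMARCA4 in 2. The other 10 were each seen in 1 list. C3 held 12 of the 15, and the animal with the fewest held 2. Housekeeping genes had 2 of 17, with ALDOA in 1 list. Axon guidance genes had 4 of 24, SLIT2, EPHB3, PLXNA1 and ROBO2, each in 1 list. No peak was placed in any of the 18 immediate early genes, which are induced by neuronal activity; against a background of 7.30% this count is too small to set the list apart.

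**Figure D5:**
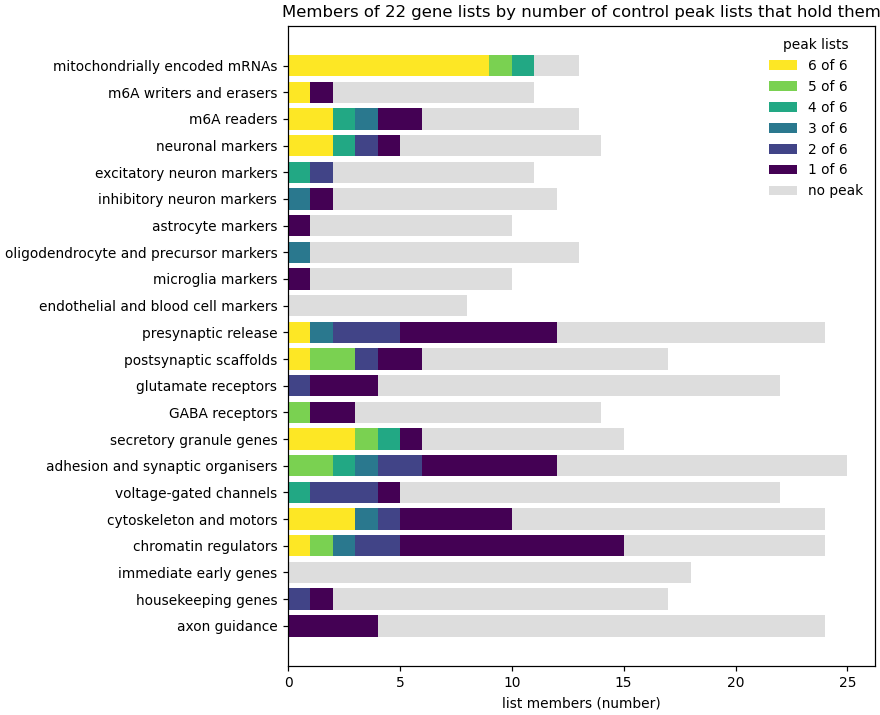
Members of 22 gene lists (x axis, number of genes) by how many of the 6 control lists hold a peak in them; grey members had no peak. Mitochondrially encoded mRNAs have 9 of 13 members in all 6 lists, cytoskeleton and secretory granule genes 3 each, and chromatin regulators 15 of 24 with a peak but 1 in all 6.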

How the data were processed

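The 6 control m6A samples are separate animals, per the labels. As tools, the submitters' processing notes list Trim Galore 0.5.0 and cutadapt, then HISAT2 2.1.0 with StringTie, on rheMac8; no source used here gives the peak caller or says how inputs were used. Each deposited peak has a p-value, a log10 p as a negative score and a fold enrichment (a ratio), per the file headers, all 3 the authors' own. No p-value exceeded 0.00074 and no fold lay under 2.07. Starts were made to count from 1. Genes follow the peak's own gene column; the annotation column differs in 196 peaks (4.92%). Of 2021 identifiers, 1765 were named through the supplied table, 127 through the peak tables and 129 not at all.

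A gene's percentile is that of its strongest peak among the genes of its list. The 5 sign-flip tests over animals (64 sign patterns) and the sex test are exact, two-sided, have a threshold of 0.05, and were tested on simulated lists (Python 3.11.15, pandas 2.3.3, numpy 2.4.6, scipy 1.17.1; figures by matplotlib 3.10.9). P-values are unadjusted. Genes were named if mitochondrial, among the 15 highest nuclear or 5 lowest of all 6 lists, extreme in peaks (10), spread, blocks or width (5 each), at the top of 5 lists (10) or 1 list (5), or among the first 4 members of a gene list; others were chosen after their values were seen. Members and gene lists were chosen with earlier results of these data known. Alternatives were a p-value of at most 1e-05, equal list lengths, leaving out animals, the other gene column, nuclear chromosomes, rank by p-value, other classes and stricter overlap. Peak sequences and motifs were not analysed here, and a few genes meeting this rule are not reported.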

Additional observations from a re-analysis of the deposited data

Results flagged for a closer look

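In 56 series of values over the control animals (up to 6 each), the highest or lowest value was tested for its distance from the rest (Dixon's 95% critical value). Chance flags about 1 in 20 such series, or 2.8 of 56, and 20 were flagged: 10 in C1, 6 in C3, 3 in B, 1 in C and 0 in A and C2. The values of 1 animal come from the same list, so they are not independent, and the causes were not tested.

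C3 lay above the other animals in its number of peaks (1210), of genes with a peak (1050), of genes seen in no other list (491, or 46.8% of its genes) and of genes with 3 or more peaks (26). Its percentile for ACTL6B, 57.8, lay below the others. C1 lay below the rest in its median log10 p-value (-9.58, that is, smaller p-values) and in the median percentile of mitochondrial mRNAs (73.0). The single genes low in C1 were ND2 (66.5), ND6 (71.1), COX2 (74.9), COX3 (68.8), CYTB (57.7), ND1 (88.8), ND5 (82.1) and the nuclear gene AEBP2 (79.98). B had the largest fold of any peak, 1570 in ND4, and the largest median fold of mitochondrial mRNAs, 301, while its percentile for FKBP2, 82.5, was the lowest of the 6. GLB1L2 was low in C, at 0.667, through a peak outside its commonest region.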

How the results depend on the processing

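The number of genes in all lists and of regions in all lists stayed within 1.5 times the reported value under every alternative run. The block difference ran from -0.194 (without C1) to -0.060 when 1 animal was left out and was -0.202 without C1 and C3, at the smallest p these numbers of animals allow in the first and last case, so the test says nothing on its stability there. With a p-value of at most 1e-05 per peak 78 genes were in all 6 lists, and with lists of equal length 80. Both settings only remove peaks, so no gene from outside the 94 could enter. Genes in 1 list went from 1332 to 837 and 856 under the same settings, both of which keep fewer peaks. Leaving out 1 animal gave differences of 28.1 to 31.3 percentile points, 0.221 to 0.272 peaks per gene and 106.6 to 119.2 bp; with 5 animals the smallest exact p is 0.0625, so none could pass. Without C1 and C3 together, chosen after seeing the data, they were 26.5 points, 0.189 peaks and 96.5 bp (exact permutation p = 0.125 each, the smallest for 4 animals). The log2 sex difference ran from -0.39 to 0.083 when 1 animal was left out, and its sign turned without C3 (0.083). Under equal lengths it has no value. For 40 named genes, 383 alternative percentiles moved by less than 1 SD and 4 by more (CELF1 under both settings with fewer peaks, COX1 with the other gene column and ZBTB47 without the mitochondrial genome). No paired analysis was possible because each animal gave 1 list and no other group entered. Motif shares were not run, since no genome of the files' build was used here. Depth is unknown, so absence from a list may reflect fewer reads.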
